A study of Macaca fascicularis with 2 samples.

Results

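Smooth muscle contractile genes were followed through the contractile and stromal cells of cynomolgus monkey testis. The set held 10 genes (ACTA2, ACTG2, MYH11, MYLK, TPM2, CALD1, CNN1, TAGLN, DES and SYNPO2), chosen by symbol, and all 10 were found among the 28845 features of the count tables. They were read in 3 classes of cells, peritubular myoid-like, mural-like and stromal-like, which were gated with other marker genes and clustered without these 10.

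Single-cell RNA was measured in Macaca fascicularis with droplet sequencing of 3' ends, as unique molecular identifier (UMI) counts. One library came from a testis placed in the abdomen on one side (UAT), a model of undescended testis, and the other from the opposite testis that stayed in the scrotum (CST). No drug or genotype is given for either, and age and number of animals are not given in the sources used here. With 1 library per position, no test was possible, and every difference is between these libraries, with animal, dissociation and position confounded.

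Smooth muscle contracts when calcium and calmodulin activate myosin light chain kinase (MYLK), which phosphorylates the light chains of smooth muscle myosin so that its heavy chain (MYH11) can pull on actin filaments built from ACTA2 and ACTG2. Tropomyosin (TPM2), caldesmon (CALD1), calponin (CNN1) and transgelin (TAGLN) bind those filaments. Desmin (DES) and synaptopodin-2 (SYNPO2) belong to the scaffold that anchors them. In testis, peritubular myoid cells wrap the seminiferous tubules and squeeze sperm and fluid along, whereas mural cells (pericytes and vascular smooth muscle) wrap blood vessels and stromal cells fill the interstitium.

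The UAT library held 12564 barcodes and 111047299 UMIs, the CST library 15952 barcodes and 197225937 UMIs, and 50 barcode sequences occurred in both. After filtering, 2040 peritubular myoid-like cells were found in UAT and 470 in CST, with medians of 7308 and 5706 UMIs per cell. Mural-like cells numbered 618 and 87 (medians of 4002 and 1954 UMIs), and stromal-like cells 4285 and 1622 (7366 and 4317 UMIs). Mitochondrial transcripts took a larger share in UAT than in CST in all 3 classes, 6.28% against 3.74% in myoid-like cells, 6.56% against 5.20% in mural-like cells and 6.42% against 4.45% in stromal-like cells.

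The class labels rest on markers outside the gene set. The same markers named the clusters, so their levels describe the classes and are no independent check. Of 10 myoid markers, which include the hedgehog targets PTCH1 and GLI1, 9 reached 20 CPM (counts per 1000000 UMIs of the class) in myoid-like cells of each library. Their summed level was 2312 CPM in UAT and 3083 CPM in CST, against 1658 and 1983 CPM in stromal-like cells, so these markers separate both classes only in part. Stromal markers such as DCN and COL1A1 summed to 8966 and 11109.5 CPM in myoid-like cells and to 25929.7 and 35530.1 CPM in stromal-like cells. The libraries also filled different clusters within a class. Cluster 1 held 2033 of the UAT and 34 of the CST myoid-like cells, and cluster 20 held 7 and 436. Of the CST stromal-like cells, 1082 lay in cluster 4, led by PI16, CLEC3B and MFAP5, where UAT had 8 cells.

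By CPM, each of the 10 genes was highest in myoid-like or mural-like cells in both libraries. Their UMIs were spread more widely. In UAT, myoid-like cells held 73.8% of ACTA2 UMIs, but stromal-like cells held 51.0% of CALD1 UMIs. In CST, spermatid-like cells held 85.9% of ACTG2 and 64.0% of CNN1 UMIs. In CST, myoid-like cells ranked first of 10 classes for every gene except CALD1, which was at 2791 CPM there and at 2833 CPM in mural-like cells. In UAT, myoid-like cells ranked first of 12 classes for MYH11, MYLK and DES, and mural-like cells for the other 7. For ACTG2 those neighbours in the UAT order did not differ beyond counting error, with a ratio of myoid-like over mural-like cells of 0.9505 (95% interval 0.815 to 1.11). Intervals here and below cover counting error only. TAGLN separated the classes most in UAT, where its mural-like level was 78.0 times the stromal-like level (73.9 to 82.3), and CALD1 least, at 1.65 times (1.61 to 1.69).

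**Figure D1:**
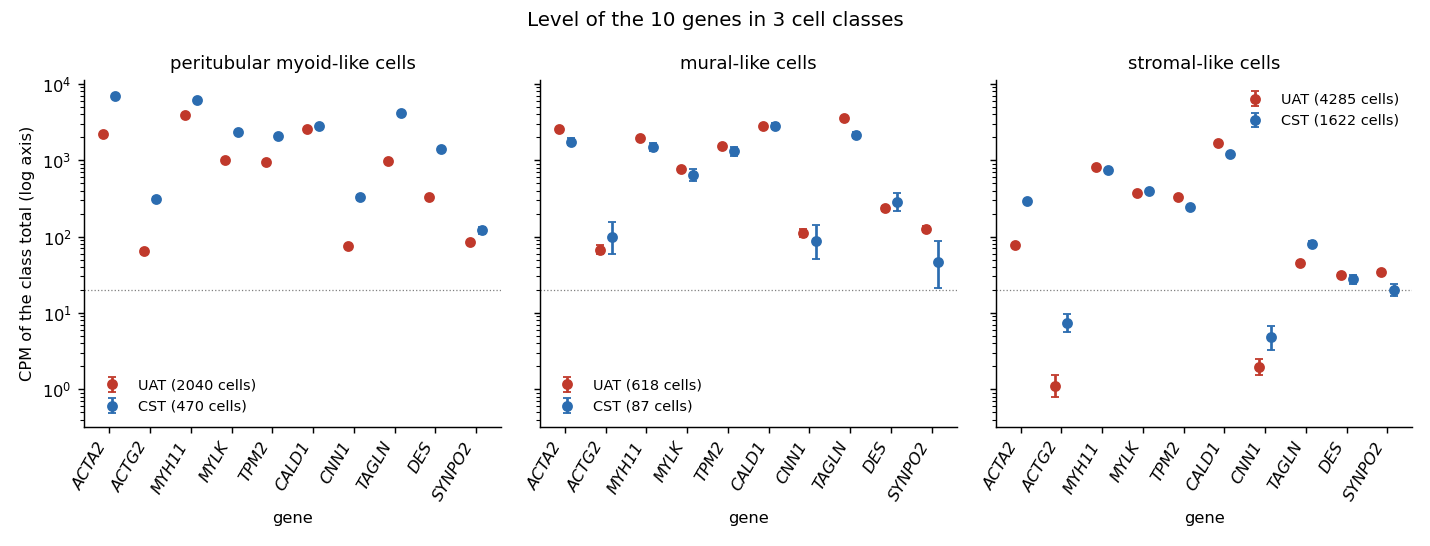
CPM of each gene in the summed counts of each class (log axis), for UAT (red) and CST (blue), with exact Poisson 95% intervals and a dotted line at 20 CPM. In myoid-like cells the CST points lie above the UAT points, from 6942 against 2225 CPM for ACTA2 to 2791 against 2548 CPM for CALD1.

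In peritubular myoid-like cells the contractile genes were lower in the abdominal testis. Of the 10 genes, 8 were at least 1.5-fold lower in UAT and 0 at least 1.5-fold higher, where 15.9% of the 7840 features measured in this class (at least 20 CPM in either library) were lower and 7.02% higher by the same fold. The median log2 ratio, with a pseudocount of 10 CPM, was -1.42 over the 10 genes and -0.08 over all measured features. The 2 genes within the fold were SYNPO2 and CALD1.

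Among the filament genes, ACTA2, the main smooth muscle actin, was at 2225 CPM in UAT and 6942 CPM in CST. The UAT over CST ratio was 0.320 (0.315 to 0.326). ACTG2, the gamma actin typical of enteric smooth muscle, was scarcer, at 64.0 CPM in UAT and 311 CPM in CST, a ratio of 0.206 (0.187 to 0.226). Its interval overlapped that of CNN1, given below. ACTG2 made up 2.79% of the UMIs of the 4 muscle actin genes in UAT myoid-like cells (exact binomial 95% interval 2.62 to 2.98) and 4.28% in CST (4.00 to 4.57). MYH11, the myosin heavy chain, was at 3864 CPM in UAT and 6085 CPM in CST, a ratio of 0.635 (0.624 to 0.646). Its difference was smaller than that of both actins.

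MYLK, the kinase that switches contraction on, was at 1005 CPM in UAT and 2342 CPM in CST, a ratio of 0.429 (0.417 to 0.442). Of the thin filament genes, TPM2, a tropomyosin, was at 948 and 2076 CPM, a ratio of 0.457 (0.443 to 0.471). CNN1, calponin, was at 74.2 CPM in UAT and 326 CPM in CST, a ratio of 0.228 (0.208 to 0.249). TAGLN, an early marker of smooth muscle differentiation, was at 987 CPM in UAT and 4183 CPM in CST, a ratio of 0.236 (0.230 to 0.242). CALD1, which is also made in non-muscle cells as a shorter isoform that 3' counts do not separate, was nearly level at 2548 and 2791 CPM, a ratio of 0.913 (0.891 to 0.936).

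Of the scaffold genes, DES, the muscle intermediate filament, was at 333 CPM in UAT and 1396 CPM in CST, a ratio of 0.239 (0.229 to 0.249). SYNPO2, an actin-binding protein, was at 83.9 CPM in UAT and 121 CPM in CST, a ratio of 0.693 (0.613 to 0.785). The genes thus spread from CNN1, TAGLN, DES and ACTG2, with ratios under 0.25, to CALD1 near 1.

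The border between myoid-like and stromal-like cells moved with the clustering, and 566 UAT and 42 CST cells of the class were not myoid-like when each library was clustered alone. In the remaining 1474 UAT and 428 CST cells, an alternative chosen after the data were seen, ACTA2 had a ratio of 0.361, TAGLN of 0.280, CNN1 of 0.257, DES of 0.286 and ACTG2 of 0.241. MYH11 there had a ratio of 0.706 and was no longer past the fold, so that 7 genes were lower. In the 566 and 42 cells set aside several genes were instead higher in UAT. There ACTA2 was at 992 CPM in UAT and 617 CPM in CST (1.61, 1.33 to 1.97), and TAGLN (1.48, 1.03 to 2.20), CALD1 (1.49, 1.31 to 1.69) and MYH11 (1.17, 1.04 to 1.31) were above 1, whereas DES had a ratio of 0.662 (0.421 to 1.10). Within cluster 1 alone, with only 34 CST cells, ACTA2 was at 2226 CPM in UAT and 4439 CPM in CST (0.502, 0.469 to 0.537), DES had a ratio of 0.242 (0.214 to 0.274), MYH11 of 0.763 (0.718 to 0.813), and again 7 genes were lower. The count was 8 in cells with at most 10% mitochondrial UMIs, 8 in cells thinned to 1000 UMIs and 9 after an estimate of free RNA had been taken out. Shares over all features were computed for the whole class only, not for these subsets and alternatives.

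**Figure D2:**
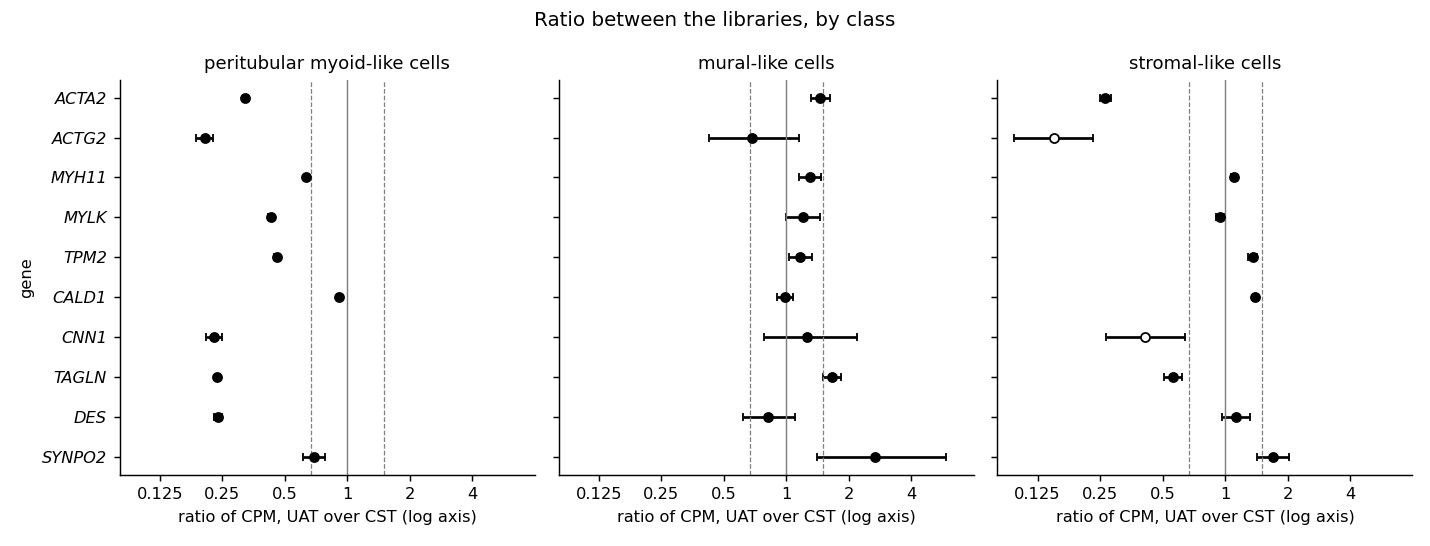
Ratio of CPM in UAT over CST for each gene (log axis), with exact 95% counting intervals, a solid line at 1 and dashed lines at 1.5-fold either way. Open points were under 20 CPM in both libraries. The myoid-like points lie at or below 0.913, the mural-like points lie on both sides of 1, and of the filled stromal-like points only ACTA2 (0.265) and TAGLN (0.560) lie left of the dashed lines.

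With every cell thinned to 1000 UMIs, a UMI of ACTA2 was found in 73.3% of 2030 UAT cells and 92.1% of 466 CST cells. For DES the shares were 24.5% and 67.6%, for TAGLN 47.8% and 81.5%, and for CALD1 90.8% and 91.4%. Without thinning, DES was found in 72.6% and 89.4%. In macrophage-like cells, which lack the programme, the thinned share of ACTA2 was 3.25% in UAT and 0.935% in CST, so the myoid-like shares were far above this background. The 5 cells richest in ACTA2 held 1.22% of its myoid-like UMIs in UAT, out of 2040 cells, and 3.33% in CST, out of 470 cells.

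The median myoid-like cell showed 5 of the 10 genes in UAT and 7 in CST at that depth. At least 5 genes were seen in 55.3% of UAT cells (53.1 to 57.4) and 84.8% of CST cells (81.2 to 87.9). The summed UMIs of the 10 genes per 1000 had a median of 11 in UAT and 26 in CST, and the middle 50% of cells ran from 7 to 16 and from 17 to 34. Both distributions overlapped, with a maximum of 39 in UAT and 63 in CST. Across single cells the count of a gene and the sum of the other 9 had Spearman correlations between 0.02 (SYNPO2) and 0.43 (ACTA2) in UAT (2030 cells) and between 0.11 (SYNPO2) and 0.64 (ACTA2) in CST (466 cells). These cells share a library, and sparser counts lower such values.

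**Figure D3:**
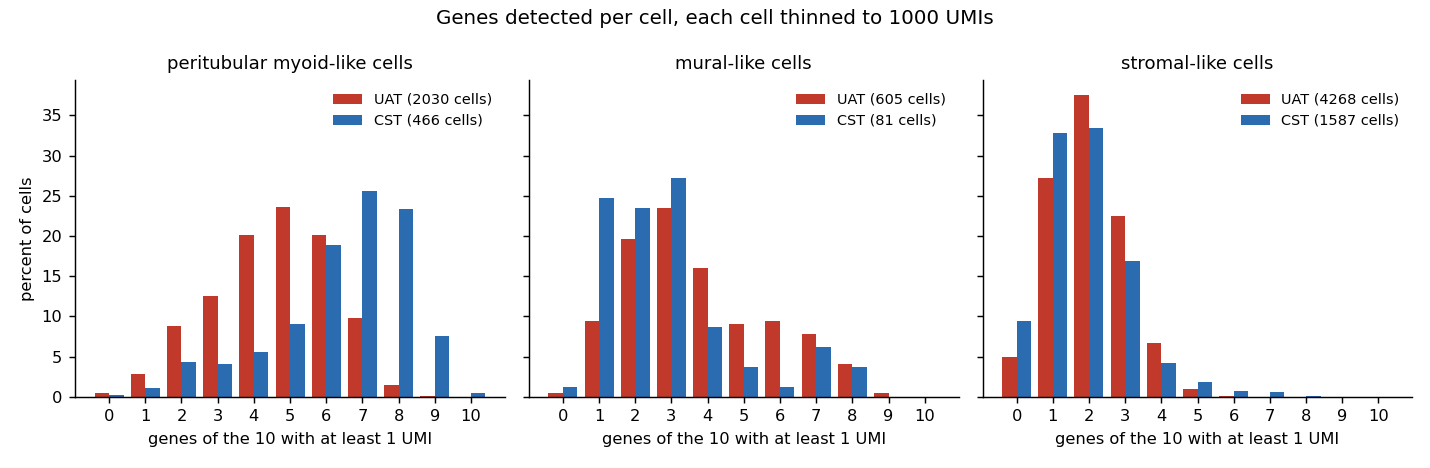
Percent of cells (vertical axis) by the number of the 10 genes with at least 1 UMI (horizontal axis), in cells thinned to 1000 UMIs, for UAT (red) and CST (blue). Myoid-like cells centre on 5 genes in UAT and 7 in CST, and both libraries centre on 3 genes in mural-like and on 2 genes in stromal-like cells.

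In mural-like cells most of the 10 genes differed by less than 1.5-fold between the testes. Of the 10, 2 were at least 1.5-fold higher in UAT (TAGLN and SYNPO2) and 0 lower, where 16.1% of the 8868 measured features were higher and 33.7% lower. With 87 CST cells these shares also carry counting error. The median log2 ratio was 0.29 over the 10 genes and -0.19 over all measured features. TAGLN was at 3528 CPM in UAT and 2128 CPM in CST, a ratio of 1.66 (1.502 to 1.83). SYNPO2 was at 126 CPM in UAT and 46.7 CPM in CST, a ratio of 2.69 (1.40 to 5.92) that rested on 9 CST UMIs.

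ACTA2 was at 2565 CPM in UAT and 1754 CPM in CST, a ratio of 1.46 (1.31 to 1.64). MYH11 was at 1954 and 1499.7 CPM, a ratio of 1.30 (1.16 to 1.47). MYLK (1.20) and TPM2 (1.17) were nearer to level. CNN1 (1.27), CALD1 (0.984), DES (0.818) and ACTG2 (0.683) had intervals that include 1. A few cells carried the CST values. The 5 richest of the 87 held 52.1% of ACTA2 UMIs, 59.9% of MYH11 UMIs, 78.2% of DES UMIs and 94.1% of CNN1 UMIs. In UAT the 5 richest of 618 cells held 9.67%, 10.9%, 10.8% and 17.2%. As 5 cells are a larger part of 87 than of 618, these shares cannot be compared directly between libraries. Without the 5% of cells of each library richest in the 10 genes, chosen after the data were seen, 8 genes were higher in UAT and 0 lower. The cells left out were picked by the same counts that are compared, so this count follows in part from that choice. No share over all features was computed for it. After thinning, at least 5 of the 10 genes were seen in 30.9% of 605 UAT cells (27.2 to 34.8) and 14.8% of 81 CST cells (7.90 to 24.4), with a median of 3 in both.

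The mural-like class fell into a pericyte-like cluster (465 UAT and 75 CST cells, led by HIGD1B, RGS5 and COX4I2) and a vascular smooth muscle-like cluster (153 UAT and 12 CST cells, led by RERGL, with MUSTN1 and PLN). Not every marker followed this split. CSPG4, a pericyte marker, was at 15.9 CPM in the pericyte-like and 67.7 CPM in the vascular smooth muscle-like cluster of UAT. CASQ2 had 0 UMIs in both clusters. RERGL was at 570 CPM in CST pericyte-like cells, below 1508 CPM in CST vascular smooth muscle-like cells. MYH11 was at 252 CPM in UAT and 313 CPM in CST in the pericyte-like cluster, and at 6368 and 7206 CPM in the vascular smooth muscle-like cluster. DES, CNN1 and ACTG2 were likewise almost limited to the vascular smooth muscle-like cells, with CNN1 at 354 CPM there and 18.2 CPM in pericyte-like cells of UAT.

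In the pericyte-like cluster ACTA2 was at 1497 CPM in UAT and 595 CPM in CST, a ratio of 2.51 (2.05 to 3.12), and TAGLN at 2814 and 1028 CPM, a ratio of 2.74 (2.34 to 3.22). MYH11 (0.803, 0.601 to 1.10), TPM2 (0.970, 0.798 to 1.19) and CALD1 (0.972, 0.882 to 1.07) were level within counting error. CNN1 and ACTG2 had 0 UMIs in CST. A limit of 3 UMIs there stands at 18.8 CPM, above their UAT levels of 18.2 and 9.79 CPM. Only ACTA2, TAGLN, SYNPO2 and DES passed 1.5-fold. The SYNPO2 ratio of 2.94 (1.33 to 8.09) rested on 6 CST UMIs. DES rested on 4 CST UMIs, and its interval (0.653 to 6.48) includes 1.

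In the vascular smooth muscle-like cluster the order turned round for these 2 genes. ACTA2 was at 5335 CPM in UAT and 7327 CPM in CST, a ratio of 0.728 (0.640 to 0.832), and TAGLN had a ratio of 0.725 (0.638 to 0.828). DES was at 727 and 1538 CPM (0.473, 0.355 to 0.642), and ACTG2 at 217 and 573 CPM (0.378, 0.235 to 0.643). DES and ACTG2 were thus past 1.5-fold lower in UAT there, as in myoid-like cells, but on 12 CST cells. The class value pools these opposite ratios, and the libraries filled both clusters unequally.

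**Figure D4:**
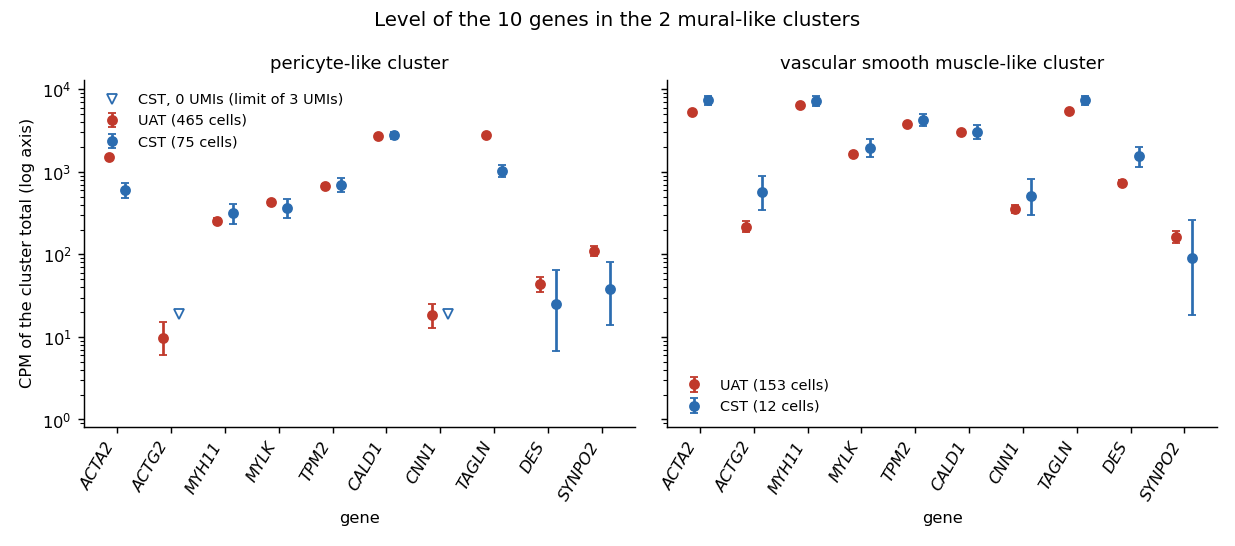
CPM of each gene (log axis) in the pericyte-like and the vascular smooth muscle-like cluster, for UAT (red) and CST (blue), with exact Poisson 95% intervals. Open triangles mark the limit of 3 UMIs where CST had 0. ACTA2 and TAGLN are higher in UAT on the left (2.51 and 2.74 times) and lower on the right (0.728 and 0.725 times).

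In stromal-like cells all 10 genes were below their levels in myoid-like and in pooled mural-like cells. The pericyte-like cluster alone had MYH11 at 252 CPM in UAT and 313 CPM in CST, below the stromal-like 822 and 747 CPM. ACTA2, TAGLN, TPM2 and CALD1 were above their stromal-like levels there in both libraries. SYNPO2, MYLK, DES, CNN1 and ACTG2 were above in UAT, and in CST did not differ beyond counting error. Across stromal-like cells the 10 genes differed between the testes in both directions. Of the 10 genes, 8 reached 20 CPM in either library. Of these, 2 were at least 1.5-fold lower in UAT (ACTA2 and TAGLN) and 1 higher (SYNPO2), where 14.9% of the 7662 measured features were lower and 4.65% higher. The median log2 ratio was 0.03 over all 10 genes, with CNN1 and ACTG2 included although under 20 CPM, and -0.08 over all measured features. ACTA2 was at 77.4 CPM in UAT and 292 CPM in CST, a ratio of 0.265 (0.2501 to 0.281), and TAGLN at 45.3 and 80.8 CPM, a ratio of 0.560 (0.509 to 0.618). SYNPO2 was at 34.0 and 20.01 CPM, a ratio of 1.70 (1.42 to 2.04).

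MYH11, at 822 CPM in UAT and 747 CPM in CST, was the myosin gene of this class as well, with 80.2% and 77.7% of the UMIs of MYH11, MYH9 and MYH10 together. CALD1 was at 1693 and 1220 CPM (1.39, 1.36 to 1.42) and TPM2 at 328 and 241 CPM (1.36, 1.29 to 1.43), both higher in UAT by less than 1.5-fold. MYLK was at 369 and 390 CPM and DES at 31.1 and 27.6 CPM. CNN1, with 67 UMIs in UAT and 34 in CST, and ACTG2, with 38 and 53, stayed under 20 CPM in both libraries.

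The stromal-like ACTA2 ratio differed between clusters. It was 0.351 (0.310 to 0.398) in cluster 2, with 2679 UAT and 295 CST cells, and 0.811 (0.630 to 1.06) in cluster 3, with 1384 and 231. CST cluster 4, where UAT had 8 cells, stood at 350 CPM. TAGLN was past the fold in neither cluster 2 (0.693) nor cluster 3 (0.736). In cluster 14, with 214 UAT and 14 CST cells, both genes were past it, ACTA2 at 0.320 (0.233 to 0.449) and TAGLN at 0.206 (0.154 to 0.280). Across minimum gene counts, resolutions and separate clustering the ACTA2 ratio ran from 0.418 to 0.528, still past the fold, and TAGLN lost its call in all of these except Leiden resolution 0.5. Without doublet removal, CST myoid-like cells joined the stromal-like class, and 8 genes were lower.

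Germ cell transcripts were present in every CST class. The 11 spermatid markers summed to 3649 CPM in myoid-like, 7275 CPM in mural-like and 4649 CPM in stromal-like cells of CST, and to 1.95, 3.70 and 1.76 CPM in UAT. The estimated share of free RNA was 14.8% in CST and 7.52% in UAT. After it had been taken out, the myoid-like ratios of ACTG2 (0.199), CNN1 (0.215) and MYLK (0.401) were at least as far from 1 as before.

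Some of the genes were also carried by germ cells of CST. ACTG2 was at 137 CPM in CST spermatid-like cells, beside 98.6 CPM in mural-like cells (59.4 to 154, on 19 UMIs), and 85.9% of all ACTG2 UMIs in CST cells lay there. A UMI of ACTG2 was found in 71.6% of 3061 spermatid-like cells, or 14.2% after thinning, with a median depth of 17323 UMIs. MYLK was at 119.8 CPM and CNN1 at 33.0 CPM in the same cells, where ACTA2 (1.84 CPM), MYH11 (1.27 CPM), TAGLN (1.48 CPM) and TPM2 (1.02 CPM) were near 0. DES was at 40.0 CPM in spermatocyte-like cells, which held 26.1% of its CST UMIs. Whether reads of these 4 genes in germ cells come from the muscle transcript or from another one in the same place cannot be read from gene counts. Among somatic cells outside the 3 classes, CNN1 was at 41.5 CPM in UAT Sertoli-like cells, and the 67 CST Sertoli-like cells had 0 UMIs, so that UAT was at least 4.24-fold higher against a limit of 3 UMIs.

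**Figure D5:**
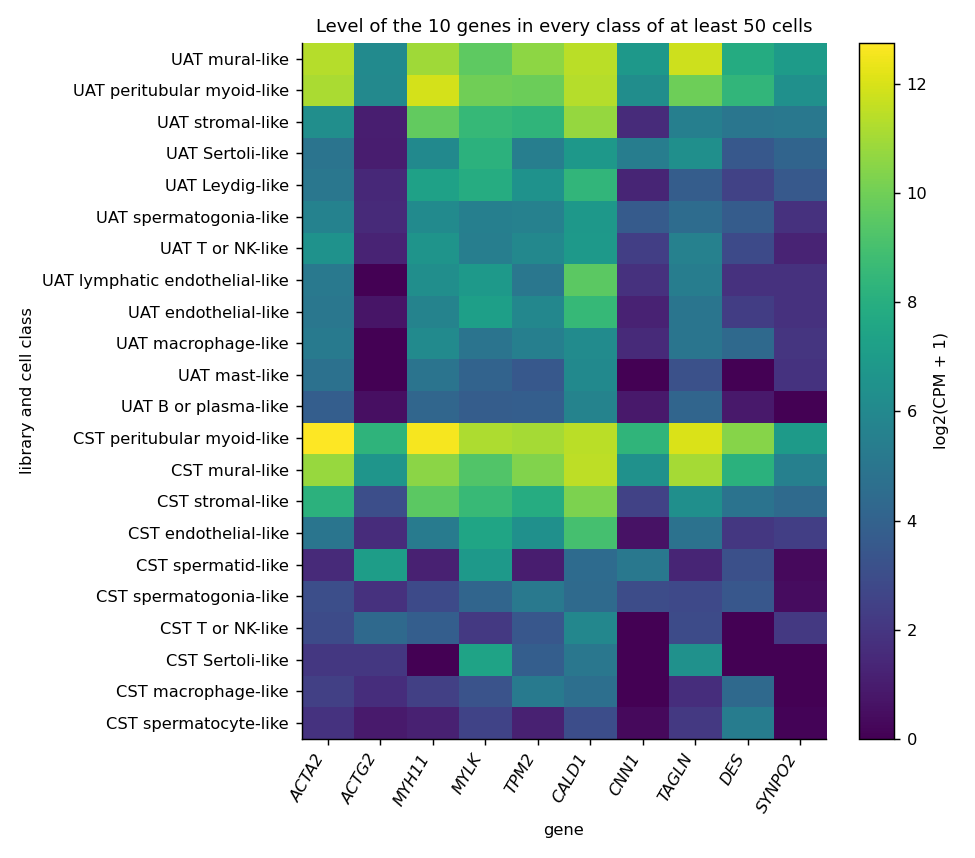
Colour shows log2(CPM + 1) of each gene (columns) in every class of at least 50 cells in each library (rows, sorted by mean within a library). Mural-like, myoid-like and stromal-like rows lead in both libraries, and ACTG2, MYLK and CNN1 stand out in the CST spermatid-like row (137, 119.8 and 33.0 CPM).

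Other genes of contraction were read from 7 lists of 111 genes, of which 109 matched a feature. In myoid-like cells the widest list, of dense plaque, cytoskeletal link and intermediate filament genes, had 14 of 24 measured genes lower in UAT and 1 higher, with a median log2 ratio of -0.63. This and the other myoid-like list counts below are to be read beside the shares of all measured features, 15.9% lower and 7.02% higher. The lists are short, and their counts were not tested against those shares. CSRP1, a LIM protein of smooth muscle, was at 147 CPM in UAT and 634 CPM in CST (0.232, 0.218 to 0.247). FLNA, the actin crosslinker filamin A, was at 466 and 1531 CPM (0.304, 0.293 to 0.316), and PDLIM7 had a ratio of 0.255 (0.234 to 0.277). In cluster 1 alone, 5 genes of this list were lower, and no share over all features was computed for that cluster.

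Myosin genes were lower for 4 of 7, with a median of -0.64 and MYL6, the essential light chain, at 269 and 937 CPM (0.287). Phosphorylation and calcium genes were lower for 6 of 14, with a median of -0.41. They included PPP1R12B, a myosin phosphatase subunit (0.371), and PPP1R14A, the inhibitor of that phosphatase (0.494). Of thin filament genes 4 of 10 were lower, with a median of -0.33, among them TPM1 (0.493) and smoothelin, SMTN (0.390). None of these 3 lists had a gene at least 1.5-fold higher. The cytoplasmic actins ACTB (0.722) and ACTG1 (0.709) stayed within the fold.

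Of the transcription regulators 4 of 14 were lower and 1 higher in myoid-like cells, with a median of -0.27. MYOCD, the coactivator that drives smooth muscle genes, was at 124.5 CPM in UAT and 219.5 CPM in CST (0.567, 0.517 to 0.623), and in cluster 1 alone its ratio was 1.26. SRF, the DNA-binding partner of myocardin, had a ratio of 0.534 (0.451 to 0.635), and HEYL, a Notch target, of 0.414 (0.356 to 0.484). Channels and receptors were lower for 2 of 7. These were KCNMA1, the pore of the calcium-activated potassium channel (0.411), and EDNRA, an endothelin receptor, at 255 and 567 CPM (0.450, 0.424 to 0.477).

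In mural-like cells the dense plaque list went the other way, with 11 of 28 genes higher in UAT and 1 lower and a median log2 ratio of 0.47, where 16.1% of all measured features were higher and 33.7% lower. The other lists of this class have few genes, and their counts are to be read beside the same shares and the counting error of 87 CST cells. VIM, vimentin, was at 3099 and 1391 CPM (2.23, 1.97 to 2.53), and NEXN, an actin-binding protein, had a ratio of 2.996 (1.61 to 6.29). Of the thin filament genes 3 of 11 were higher and 1 lower. LMOD1, a leiomodin that nucleates actin filaments, was at 492 and 150.5 CPM (3.27, 2.27 to 4.90). Actins had 0 of 2 past the fold, myosins 1 of 7 higher and 1 lower, phosphorylation and calcium genes 1 of 17 higher and 4 lower, transcription regulators 4 of 15 higher and 4 lower, and channels and receptors 3 of 13 higher and 5 lower. TRPC6, a cation channel, had a ratio of 0.268 (0.121 to 0.670).

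In stromal-like cells 4 lists had at most 2 genes past the fold in all. Actins had 0 of 2, myosins 1 of 7 higher and 0 lower, thin filament genes 1 of 9 higher and 1 lower, and dense plaque genes 0 of 19 higher and 1 lower, FLNA (0.663). Phosphorylation and calcium genes had 2 of 14 higher and 3 lower, transcription regulators 0 of 13 higher and 3 lower, and channels and receptors 2 of 8 higher and 1 lower. Of all measured features of this class 14.9% were lower and 4.65% higher. The lists are short, and their counts were not tested against those shares. HES1, a Notch target, was at 191 and 340.5 CPM (0.561), and AGTR1, the angiotensin receptor, at 85.0 and 56.0 CPM (1.52, 1.37 to 1.69).

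Genes most like the set were sought among 6851 genes over 22 class sums, with Pearson's r on log2(CPM + 10). The mean of the 10 genes was matched best by FBLIM1 (r = 0.962), NEXN (0.951), FOXS1 (0.951), SLIT3 (0.939) and MAP1A (0.935). MYOCD was the gene most like DES (0.927) and CNN1 (0.883), PRKG1 most like MYH11 (0.953), and NEXN most like ACTA2 (0.954). ACTG2 had the weakest match, SEPT4 (0.780), and CALD1 the closest, RBMS3 (0.975). These sums share libraries and depth, and the values are descriptions.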

How the data were processed

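As deposited, each matrix gives the raw UMI count of a gene in a barcode, in whole numbers over 28845 features. Counting used Cell Ranger 5.0.0 per the file headers. The submitters' processing notes instead list version 3.0.1 of that tool and the mouse build mm10. Feature names are macaque symbols, so no coordinates are given, and overlapping transcripts were not checked.

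Barcodes with at least 500 genes were kept (12352 in UAT, 15001 in CST). Doublets were scored against simulated pairs and 0.8% per 1000 barcodes were removed, 1221 in UAT and 1800 in CST. The remaining 11131 and 13201 cells were clustered together in scanpy 1.11.5 (2000 variable genes without the 10 genes and the other contractile lists, 40 components, 15 neighbours, Leiden resolution 1, no integration). A cluster took the name of the marker list with the highest mean log2 ratio, if at least 3 markers were found in at least 5% of its cells and that mean reached 0.5. This way of naming was settled with the files in view. The 10 genes and all lists were chosen with earlier results of these data known.

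Counts of all cells of a class in a library were added up and given as CPM of the class total, with exact Poisson intervals. Ratios have exact conditional binomial 95% intervals. A gene was measured at 20 CPM in either library and counted as higher or lower from 1.5-fold. Shares of cells have Clopper-Pearson intervals. Genes of the other lists were named as up to 3 per list and class with the largest absolute log2 ratio. Genes most alike had at least 100 CPM in a class sum. The steps were tested on simulated counts with 200 changed genes. Among genes changed 2-fold, the interval lay on the correct side of 1 for 99% at the depth of the myoid-like class (7840 genes) and for 49% at that of the mural-like class (8868 genes). In the latter, 31.1% of unchanged genes passed 1.5-fold by counting error alone. Alternatives covered filters, doublets, clustering, gating, thinning, scaling, free RNA, mitochondrial share and pseudocount.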

Additional observations from a re-analysis of the deposited data

Results flagged for a closer look

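For 7 of the 10 genes the counting intervals of the UAT over CST ratio lay on opposite sides of 1 in at least a pair of classes. The difference between classes was not tested, since each class had 1 library per position. The ratio in myoid-like cells, divided by that in mural-like cells, was 0.142 for TAGLN, 0.219 for ACTA2, 0.258 for SYNPO2, 0.357 for MYLK, 0.390 for TPM2 and 0.487 for MYH11. Divided by the stromal-like ratio, it was 0.336 for TPM2, 0.408 for SYNPO2, 0.577 for MYH11 and 0.658 for CALD1. The mural-like ratio over the stromal-like ratio was 5.52 for ACTA2, 2.96 for TAGLN and 1.27 for MYLK. The mural-like ratios behind these values changed with the cluster. ACTA2 and TAGLN were above 1 in the pericyte-like and below 1 in the vascular smooth muscle-like cluster. MYLK was at 1.17 (0.898 to 1.56) and 0.842 (0.657 to 1.10). MYH11 (0.803 and 0.884) and TPM2 (0.970 and 0.881) were below 1 in both clusters, although their pooled ratios were 1.30 and 1.17. The opposite sides against myoid-like cells for MYH11, TPM2 and MYLK thus rest on the pooled mural-like class.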

How the results depend on the processing

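No paired analysis was possible because each position had 1 library. In myoid-like cells, 7 to 9 of the 10 genes were lower and 0 higher under every alternative that gave a value. No value came without doublet removal (33 CST cells) or from a cluster with 50 cells in both libraries (there was none). CALD1 turned to a log2 ratio of 0.01 with cells gated one by one.

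In mural-like cells the count of higher genes was 1 with a minimum of 1000 genes, without doublet removal and in the vascular smooth muscle-like cluster. It was 4 with mean CPM per cell and in the pericyte-like cluster, 6 with cells gated one by one or thinned to 1000 UMIs, and 8 without the 5% richest cells. Those richest cells were picked by the same counts that are compared. The count of lower genes was 1 with a minimum of 200 genes, with each library alone, with contractile genes used for clustering, thinned, and without cells over 10% mitochondrial. It was 2 with a minimum of 1000 genes, without doublet removal and in the vascular smooth muscle-like cluster.

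In stromal-like cells the count of higher genes was 0 without doublet removal, with a filter of 100 CPM and in cluster 2, and 3 at resolution 0.5. The count of lower genes was 1 with a minimum of 200 or 1000 genes, each library alone, resolution 2, contractile genes used, a filter of 100 CPM and in cluster 2, 4 without a CPM filter and 8 without doublet removal.

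Of the values past 1.5-fold, the log2 ratios that reversed were 0.76 (myoid-like) and 0.30 (stromal-like) for CALM3 after free RNA was taken out, and 0.30 for MYOCD in cluster 1. In mural-like cells gated one by one they were 0.29 for CACNA1C and -0.14 for ITPR2, and in the vascular smooth muscle-like cluster -0.46 for TAGLN, -0.37 for SMTNL2 and -0.18 for SRF. Mural-like values within the fold also changed sign, to -0.46 for ACTA2 and -0.52 for CNN1 in that cluster, and to 0.87 for DES and 1.504 for ACTG2 without the 5% richest cells, among others. Without doublet removal in stromal-like cells they were -0.34 for SYNPO2, -0.35 for LMOD1 and -0.49 for KCNMB1. Causes were not tested. Core cells, single clusters outside the shared one and the 5% of richest cells were alternatives chosen after seeing the data.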
